A study of Mus musculus with 29 samples.

Results

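Microglia from mice that had been injected with lipopolysaccharide (LPS) on both of 2 occasions were compared with microglia from mice that had been injected with saline on both, to ask which parts of the LPS response are still present when LPS is given again. The comparison covers the 5 libraries of the first group, LL, and the 5 libraries of the second group, PP, chosen by their labels, 10 of the 29 libraries of the series. All mice were male C57BL/6J mice, injected into the peritoneum at 10 weeks of age and again 5 weeks later, with brain collection at 15 weeks, 3 h after that injection. LL mice received 1 mg/kg LPS from Escherichia coli O111:B4, then a cyclodextrin vehicle by oral gavage, then the same LPS dose again. PP mice received saline, the same vehicle and saline. A further group with its microglia left in place, PL (4 libraries), received saline, vehicle and a single LPS dose. Its values are set beside those of LL and PP for many of the genes described. LBL and PBP (5 libraries each) received LPS on both occasions and saline on both occasions in the same schedule, but with the CSF1R inhibitor BLZ945 at 169 mg/kg per day for 5 days in place of vehicle, so that their microglia had been removed and had grown back. Cells were sorted by high CD11b, intermediate CD45 and no Ly6C, a gate meant to hold microglia and to leave out inflammatory monocytes. The labels give 1 sample per library and say no more about separate animals, so a p-value here reflects spread among samples that may be partly technical.

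LPS is bound by CD14 and handed to a complex of TLR4 and MD-2, which signals through the adaptors MyD88 and TIRAP to NF-kB and MAP kinases and, from endosomes, through TRIF and TRAM to interferon regulatory factors. The products include cytokines, chemokines and interferon-stimulated genes, together with feedback inhibitors such as A20, IkB-alpha and the SOCS proteins that end the signal. In macrophages an earlier exposure to LPS is known to leave some of these genes poorly inducible, a state called endotoxin tolerance, while others are induced again. In whole animals LPS also acts indirectly, through circulating cytokines that activate STAT3 and through a rise of glucocorticoids.

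Each library held between 6404550 and 12671476 counts in LL, 5806269 and 9056425 in PL and 7397399 and 8606743 in PP. The 5 LL libraries were sorted on a MoFlo XDP, 4 of them on the second sorting day of the series and LL replicate 5 on the first, whereas the 5 PP libraries were sorted on a MoFlo Astrios on the fifth day. No LL library shared a sorter or a day with a PP or PL library, so a difference between LL and PP can come from the treatment, the instrument or the day, and these cannot be told apart within the 2 groups. The neuron marker score, the mean log2 CPM (counts scaled to library size) of 10 neuronal genes, was 2.42 to 4.40 in LL, 1.44 to 2.35 in PL and 0.286 to 1.83 in PP. In PBP replicate 5, the one saline library of the series sorted on the XDP, it was 3.88, and since PBP is the only group with both sorters, this library alone sets the sorter effect when the sorter is a term in the model. It was sorted on day 3, unlike any LL, PL or PP library. Its RNA quality number was 7.4, against 8.8 to 9 in the other PBP libraries. The sorter term therefore cannot be told apart from the day and RNA quality of this library. RNA quality numbers were 7.9 to 8.9 in LL, 6.5 to 9.1 in PL, where replicate 3 was the lowest, and 8.6 to 9.1 in PP. The 12 microglia markers summed to 46300 to 57500 CPM in LL and 65600 to 77900 CPM in PP, and the neutrophil markers to 1.42 CPM in the median LL library and 0.126 CPM in the median PP library, so that microglial transcripts dominated both groups as labelled.

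Microglia that met LPS again differed widely from saline microglia. In edgeR's quasi-likelihood test with Benjamini-Hochberg adjustment over 16632 genes, 3145 genes (18.9%) were higher and 2195 (13.2%) lower in LL than in PP at an adjusted p under 0.05. A fitted change of at least 2-fold was found for 1935 genes (11.6%) upward and 587 (3.53%) downward. All LL libraries lay above all PP libraries for 2081 genes (12.5%) and below them for 1635 (9.83%). PL, set against the same PP libraries, had 2369 genes (14.2%) higher and 1981 (11.9%) lower. Set against each other, LL exceeded PL for 125 genes (0.752%) and was below PL for 338 (2.03%). With the sorter in the model, 796 genes (4.79%) were higher and 385 (2.31%) lower in LL than in PP, the median standard error being 0.50 with that term and 0.25 without it. Of the genes called without the term, 643 higher and 288 lower ones were called in the same direction with it, while 657 of the higher and 332 of the lower ones had the opposite sign. LL and PL also differ in sorter, and with the term only 1 gene (0.00601%) was higher and 10 (0.0601%) were lower in LL than in PL, against 2058 at an unadjusted p under 0.05. A difference of LL from PL given below was called without the sorter term, and unless stated otherwise was not called with it. The contrasts of LL with PP, PL with PP and LL with PL share libraries, so their values are set side by side and not as independent results. Some gene lists share members, such as Nfkbia in the NF-kB and glucocorticoid lists and Socs3 in the signalling brake and STAT3 lists. Counts of different lists are therefore not separate results. Counts of gene list members below are to be read beside the share of all genes called in the same contrast. Those shares were 14.2% higher and 11.9% lower in PL against PP, and 2.03% lower in LL against PL. With the sorter term they were 4.79% higher and 2.31% lower in LL against PP. Values in brackets are log2 fold changes, of LL against PP unless another contrast is named, with adjusted p from edgeR's quasi-likelihood test, and group means are given ± SD over the 5 LL, 4 PL and 5 PP libraries.

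**Figure D1:**
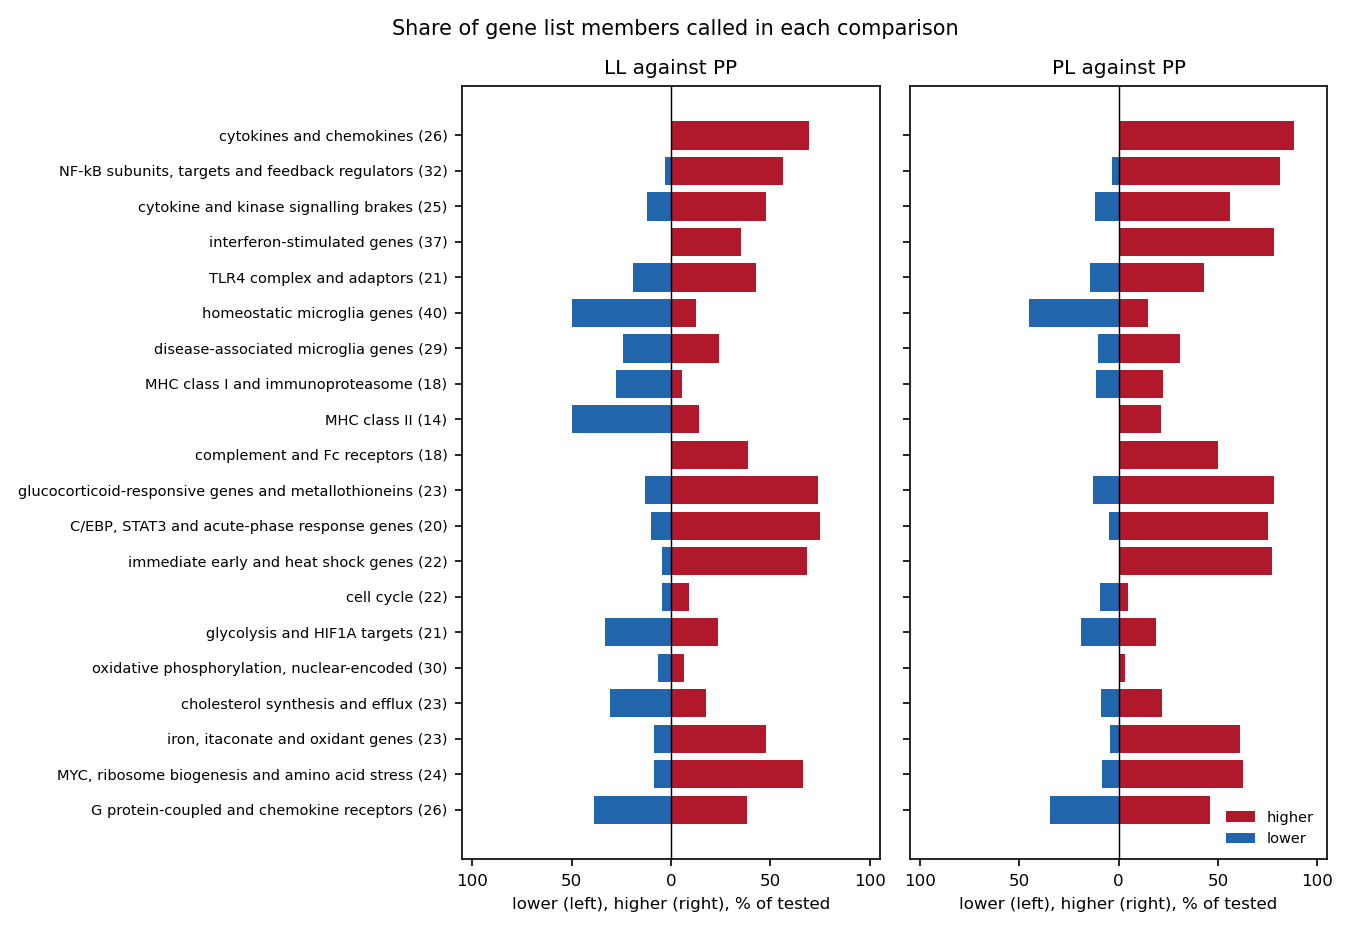
Share of tested members of 20 gene lists (number tested in brackets) called higher (red, to the right) or lower (blue, to the left) at an adjusted p under 0.05, in LL against PP on the left and in PL against PP on the right. The 2 panels share the PP libraries; 18 of 26 cytokine and chemokine genes were higher in LL and 23 of 26 in PL.

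Most inflammatory cytokine and chemokine genes were still above saline in LL, and most were below their level in PL. Of 26 tested members, 18 were higher in LL than in PP, none was lower and 8 did not pass, with a median log2 fold change of 1.58, against 0.02 over all genes and 18.9% of all genes called higher. In PL against PP, 23 were higher, with a median of 4.79, and 20 of the 26 were lower in LL than in PL, beside 2.03% of all genes. Under the sorter term 10 were higher in LL than in PP.

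Il1b (ENSMUSG00000027398, chromosome 2) encodes interleukin 1 beta, the cytokine that inflammasomes release. It was at 65.8, 40.1, 59.9, 36.9 and 109 CPM in LL libraries and 320.1, 70.6, 398 and 381 CPM in PL libraries. The level in PP libraries was 3.35, 1.35, 2.66, 0.6 and 1.39 CPM. The LL libraries all lay above the PP libraries, and LL replicates 1 to 4 lay below the 4 PL libraries, while LL replicate 5, sorted on another day than the other LL libraries, lay above PL replicate 2. The log2 fold change was 5.05 (SE 0.51, adjusted p = 2.26e-08) in LL against PP, 7.28 in PL against PP and -2.23 (SE 0.39, adjusted p = 0.000794) in LL against PL. The last of these missed the threshold with only LL and PL in the model (-2.20, adjusted p = 0.0678). Tnf (ENSMUSG00000024401, chromosome 17), which encodes tumour necrosis factor, had 21.9, 19.7, 33.1, 29.6 and 46.8 CPM in LL libraries and 158, 52.2, 203 and 174 CPM in PL libraries. In PP it was at 4.34, 4.18, 1.77, 2.88 and 1.13 CPM. Here no LL library reached the lowest PL library and none fell to the highest PP library, and the log2 fold change was 3.39 (SE 0.42, adjusted p = 7.39e-07) against PP and -2.29 (SE 0.36, adjusted p = 0.000193) against PL.

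Cxcl10 (ENSMUSG00000034855, chromosome 5) encodes an interferon-induced chemokine that attracts T cells. It had 8.18, 10.8, 7.88, 14 and 54 CPM in LL libraries and 523, 73.4, 549.8 and 419 CPM in PL libraries. Saline microglia (PP) had 2.11, 1.48, 2.02, 1.32 and 0.882 CPM. LL replicate 5 stood well above the other LL libraries, all of which lay above every PP library and below every PL library, and PL replicate 2 was the lowest of its group. Its log2 fold change of 3.61 (SE 0.71, adjusted p = 0.000426) in LL against PP did not hold with the sorter in the model (4.59, adjusted p = 0.173) or in limma voom (adjusted p = 0.102), and that against PL was -4.35 (SE 0.56, adjusted p = 2.75e-05). Ccl2 (ENSMUSG00000035385, chromosome 11), the main monocyte-attracting chemokine, was at 128, 117, 119.6, 141 and 174 CPM in LL libraries and 306, 157, 224 and 272 CPM in PL libraries. Values in PP libraries were 31.7, 11.5, 13.8, 10.1 and 6.55 CPM. Its LL and PL ranges overlapped, all LL libraries exceeded PP (3.20, SE 0.43, adjusted p = 2.75e-06), and the difference from PL did not pass the test (-0.82, SE 0.40, adjusted p = 0.317). That difference did pass with only LL and PL in the model (-0.80, adjusted p = 0.0182).

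**Figure D2:**
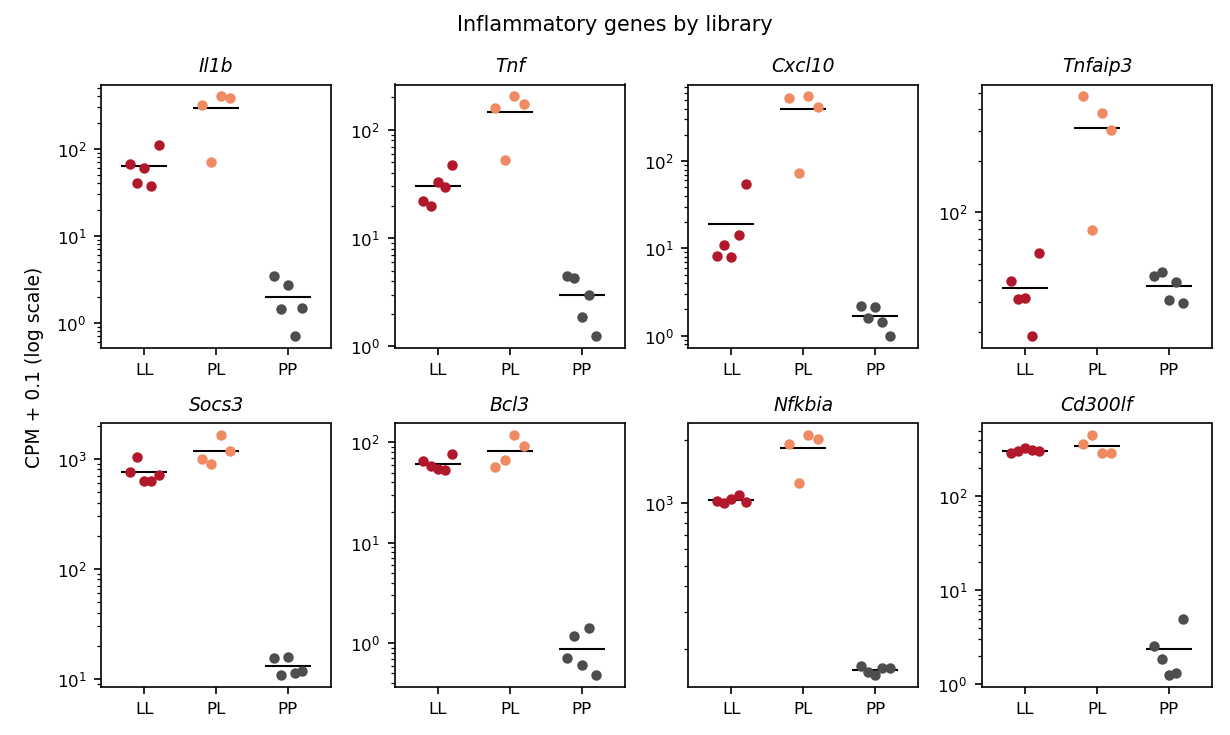
Level of 8 genes in each library, as CPM plus 0.1 on a log axis, in LL (5 libraries), PL (4) and PP (5); black lines are group means. Tnf and Cxcl10 lie between PP and PL in LL, as does Il1b except that LL replicate 5 lies above PL replicate 2, Tnfaip3 lies at the PP level, Nfkbia lies between PP and PL, and Socs3, Bcl3 and Cd300lf overlap with PL.

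Ccl12, another monocyte chemokine, was the most abundant of these chemokines: it averaged 2522 ± 447 CPM in LL, 3881 ± 959 CPM in PL and 80.4 ± 17.1 CPM in PP. LL differed from PP by 4.97 (SE 0.26, adjusted p = 3.35e-14) while the difference from PL did not pass (-0.62, adjusted p = 0.167). With only LL and PL in the model, Ccl12 passed against PL (-0.60, adjusted p = 0.0486). Il1a, for interleukin 1 alpha, averaged 529 ± 60.6 CPM in LL, 1340.2 ± 455 CPM in PL and 183 ± 18.1 CPM in PP. Osm, for oncostatin M, averaged 57.5 ± 9.12 CPM in LL, 115 ± 25.3 CPM in PL and 21.5 ± 4.88 CPM in PP. Both were above saline (1.53, adjusted p = 1.29e-07 for Il1a and 1.42, adjusted p = 1.24e-08 for Osm) and below PL (-1.34, adjusted p = 3.52e-05 for Il1a). Il12b, the shared subunit of interleukins 12 and 23, had no count in any PP library and 317 counts over the LL libraries, so that it was at least 97.7-fold higher in LL, taking 3 counts over the PP group as the floor, 0.0755 CPM; it was not called with the sorter in the model (adjusted p = 0.426). Several other members did not pass against saline. Ccl3 averaged 55.9 ± 15.3 CPM in LL, 227 ± 105 CPM in PL and 36.2 ± 7.31 CPM in PP and did not pass against PP (0.63, adjusted p = 0.123), although it did in a model of the 2 groups alone (adjusted p = 0.00944). Cxcl16 did not pass either (0.20, adjusted p = 0.343), and Cxcl9 was at 0.292, 1.61, 0, 0.138 and 4.6 CPM in LL libraries and 0.248, 4.18, 0.633, 0.72 and 4.03 CPM in PP libraries, with 16.7, 4.63, 14.1 and 14.9 CPM in PL libraries. Il10, which was below the filter, had 69 counts over the PL libraries and none in LL or PP, a level under 0.0699 CPM in LL and 0.0755 CPM in PP. These floors cover counting error only.

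NF-kB genes divided in the same comparison. Of 32 tested subunits, targets and feedback regulators, 18 were higher in LL than in PP, 1 was lower (2 without LL replicate 5 or PP replicate 3 or 4) and 13 did not pass, with a median log2 fold change of 0.62 beside 0.02 over all genes. Among all genes 18.9% were higher and 13.2% lower. In PL, 26 list members were higher than in PP with a median of 1.95, and 20 of the 32 were lower in LL than in PL, beside 2.03% of all genes. When the sorter entered the model 9 were higher in LL than in PP and none was lower.

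Nfkbia (ENSMUSG00000021025, chromosome 12) encodes IkB-alpha, which holds NF-kB in the cytoplasm and is itself an NF-kB target. It was at 1023, 991, 1046, 1087 and 1005 CPM in LL libraries and 1917, 1246, 2098 and 2012 CPM in PL libraries. Among PP libraries it was at 165, 154, 149, 162 and 161 CPM. The LL libraries were close to one another, lay above all PP libraries and below all PL libraries, and the log2 fold change was 2.70 (SE 0.11, adjusted p = 2.06e-19) against PP and -0.82 (SE 0.11, adjusted p = 1.62e-05) against PL. Bcl3 (ENSMUSG00000053175, chromosome 7), an atypical IkB protein that stabilises inhibitory p50 dimers on DNA, was at 65.4, 57.4, 54.1, 53 and 76.2 CPM in LL libraries and 56.4, 66.3, 117 and 91.5 CPM in PL libraries. PP libraries held 0.62, 1.08, 0.506, 1.32 and 0.378 CPM. It was close to absent in saline microglia, its LL and PL ranges overlapped, and it differed from PP by 6.26 (SE 0.25, adjusted p = 2.95e-20) and from PL by -0.44 (SE 0.17, adjusted p = 0.176).

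Tnfaip3 (ENSMUSG00000019850, chromosome 10) encodes A20, the ubiquitin-editing enzyme that shuts down NF-kB signalling. It had 39.7, 31.1, 31.5, 18.7 and 57.5 CPM in LL libraries and 475, 78.8, 380.3 and 301 CPM in PL libraries. The level in PP libraries was 42.1, 44.5, 30.5, 39.1 and 29.5 CPM. The LL and PP libraries overlapped, with a log2 difference of -0.053 (SE 0.34, adjusted p = 0.924), while all 4 PL libraries lay above both groups (-3.11, SE 0.36, adjusted p = 7.92e-06 for LL against PL). Rel and Relb, which encode NF-kB subunits, likewise did not pass against PP (0.12, adjusted p = 0.568 and 0.46, adjusted p = 0.313) and were lower in LL than in PL (-1.02, adjusted p = 2.75e-05 and -2.21, adjusted p = 8.8e-05). Gadd45b, a stress-induced regulator of MAP kinase signalling, was at 1.17, 1.69, 1.06, 0.415 and 3.4 CPM in LL libraries, 28, 9.45, 48.1 and 30.2 CPM in PL libraries and 0.991, 0, 1.26, 0 and 0.378 CPM in PP libraries. Its difference from PP did not pass (1.57, adjusted p = 0.0801), but it did without LL replicate 4 (adjusted p = 0.0473), without PP replicate 3 (adjusted p = 0.0375) and with a replicate block (1.74, adjusted p = 0.027). Nfkbie, for IkB-epsilon, was the member below saline: it averaged 21.2 ± 6.98 CPM in LL, 82.6 ± 33.1 CPM in PL and 38.1 ± 5.91 CPM in PP, a log2 difference of -0.84 (SE 0.24, adjusted p = 0.00711) against PP that did not hold with the sorter in the model (-0.36, adjusted p = 0.74). Icam1, the adhesion molecule, and Ier3, an early response gene, also passed, with log2 fold changes of 2.17, adjusted p = 4.41e-15 and 4.38, adjusted p = 4.4e-11 against PP. Both were lower in LL than in PL, the Ier3 call being lost without PL replicate 3 or 4.

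Brakes on cytokine receptors and kinases were raised in part. Of 25 tested members, 12 were higher in LL than in PP and 3 were lower, with a median of 0.48. These counts stand beside 18.9% higher and 13.2% lower among all genes. In PL 14 were higher and 3 lower, with a median of 0.64. Fitted with the sorter 10 were higher in LL than in PP and none was lower. Socs3 (ENSMUSG00000053113, chromosome 11), the inhibitor that STAT3 induces against receptors of the interleukin 6 family, was at 759.6, 1030, 633, 628 and 718 CPM in LL libraries and 998, 899, 1628 and 1168 CPM in PL libraries. In PP it was at 15.4, 10.7, 15.7, 11.3 and 11.7 CPM. The LL range overlapped that of PL and lay above PP, with a log2 difference of 5.86 (SE 0.22, adjusted p = 6.51e-20) against PP. The difference from PL was small (-0.64, SE 0.18, adjusted p = 0.0449) and passed or missed the threshold according to the library left out, the adjusted p reaching 0.239 without PL replicate 3.

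Socs2 and Cish, SOCS proteins induced by STAT5, were nearly silent in saline microglia: Socs2 averaged 50.6 ± 10.0 CPM in LL, 73.5 ± 22.4 CPM in PL and 0.567 ± 0.59 CPM in PP. Cish averaged 21.1 ± 3.71 CPM in LL, 47.4 ± 10.3 CPM in PL and 0.387 ± 0.392 CPM in PP. Socs2 differed from PP by 6.47 (SE 0.44, adjusted p = 1.21e-12) and Cish by 5.74 (SE 0.35, adjusted p = 5.22e-15), and Cish was lower in LL than in PL (-1.17, adjusted p = 0.00196). Ptpn1, a phosphatase that acts on JAK kinases, had a log2 fold change of 2.04, adjusted p = 4.4e-19 against PP and its difference from PL did not pass (-0.11, adjusted p = 0.61). Dusp16, a phosphatase of JNK, had a log2 fold change of 1.70, adjusted p = 4.37e-13 against PP. It was lower in LL than in PL, a call lost without LL replicate 4 or PL replicate 1. Dusp1, the phosphatase that ends p38 signalling, was at 124, 109.6, 139, 112 and 212 CPM in LL libraries, 1581, 166, 701 and 967 CPM in PL libraries and 37.4, 8.09, 2.91, 7.08 and 7.43 CPM in PP libraries, all LL libraries above PP (3.46, adjusted p = 0.00045). Socs1, which restrains interferon signalling, did not pass (-0.84, adjusted p = 0.214). Il10ra, the interleukin 10 receptor chain through which macrophages are calmed, was at 100.4, 156, 105, 132 and 100.2 CPM in LL libraries and 222, 242, 199.9, 234 and 259.5 CPM in PP libraries, lower in each LL library, with a log2 difference of -0.96 (SE 0.15, adjusted p = 4.62e-06) that did not hold with the sorter in the model (-0.41, adjusted p = 0.433). Il10ra was also lower in LL than in PL, and it belongs to the homeostatic list described below. The 3 brakes that were lower, a share close to that of all genes, were Zfp36l2, Ptpn6 and Irak2.

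The proximal promoters of 3 genes are shown because their levels in LL stood differently to those in PL: the Socs3 libraries of LL and PL overlapped, the Nfkbia libraries of LL all lay below those of PL, and Cxcl10 had the largest log2 difference from PL of the 3. Socs3 and Nfkbia had similar fold changes against PL (-0.64 and -0.82). The sequences are the 250 bases before the transcription start in RefSeq's table for build GRCm38.p6, 5′ to 3′ on the gene's own strand, which for all 3 is the minus strand. Capitals mark GGGANNTTC, a form of the NF-kB site, GAAANNGAA, a repeat unit of the interferon-stimulated response element, and TTCNNNGAA, the STAT site, on either strand. They lie at chr11:117969367-117969616 for Socs3, chr12:55492648-55492897 for Nfkbia and chr5:92348890-92349139 for Cxcl10.
Socs3: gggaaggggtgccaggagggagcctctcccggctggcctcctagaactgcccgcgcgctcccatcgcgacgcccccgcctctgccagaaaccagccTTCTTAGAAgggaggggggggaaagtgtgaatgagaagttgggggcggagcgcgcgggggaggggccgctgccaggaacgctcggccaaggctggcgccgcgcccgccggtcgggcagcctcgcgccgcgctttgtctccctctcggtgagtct
Nfkbia: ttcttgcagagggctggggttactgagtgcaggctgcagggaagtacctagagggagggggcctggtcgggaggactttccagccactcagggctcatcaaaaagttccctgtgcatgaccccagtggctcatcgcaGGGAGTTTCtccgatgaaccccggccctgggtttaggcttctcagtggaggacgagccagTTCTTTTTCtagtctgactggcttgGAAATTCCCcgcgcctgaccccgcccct
Cxcl10: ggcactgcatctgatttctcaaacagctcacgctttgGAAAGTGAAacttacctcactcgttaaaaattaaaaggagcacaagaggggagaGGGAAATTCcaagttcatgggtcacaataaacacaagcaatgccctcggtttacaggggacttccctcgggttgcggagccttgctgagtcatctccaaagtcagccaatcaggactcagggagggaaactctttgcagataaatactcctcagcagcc
The Socs3 stretch held 1 STAT form, that of Nfkbia held 2 NF-kB forms and 1 interferon element, and that of Cxcl10 held 1 NF-kB form and 1 interferon element. Over windows of 250 bases before to 50 after the start, the NF-kB form was in 4.3% of the promoters of genes called higher in LL than in PP, 3.47% of those called lower and 3.87% of all 27025 genes with a promoter. The interferon element was in 8.05%, 6.25% and 8.57%, and the STAT form in 7.75%, 6% and 8.47%. The table held a promoter for 2025 of the 3145 higher genes and 1616 of the 2195 lower ones. A match of letters is a description and not a binding site.

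Some genes of the receptor complex and its adaptors were higher in LL than in PP. Others were lower, at a share near that of all genes and in no case with the sorter in the model. Of 21 tested members of the TLR4 complex and its adaptors, 9 were higher and 4 lower in LL than in PP, beside 18.9% and 13.2% of all genes, with a median of 0.17, and PL had 9 higher and 3 lower. With the sorter in the model 4 were higher and none was lower. Cd14 (ENSMUSG00000051439, chromosome 18) was at 3237, 2587, 2832, 2707 and 3461 CPM in LL libraries and 7137, 4117, 5363 and 5392 CPM in PL libraries. Saline microglia (PP) had 1495, 1282, 1321, 1402 and 1307 CPM. The LL libraries lay between the other groups with no overlap, at 1.12 (SE 0.12, adjusted p = 3.95e-09) against PP and -0.89 (SE 0.13, adjusted p = 2.09e-05) against PL. Tlr4 (ENSMUSG00000039005, chromosome 4) was at 102, 94, 104, 129 and 73.7 CPM in LL libraries and 81.8, 98, 59.5 and 70.0 CPM in PL libraries. Values in PP libraries were 168, 149, 172, 179.5 and 137 CPM. It was lower in the LL libraries than in any PP library (-0.68, SE 0.14, adjusted p = 0.000394), but it did not pass with the sorter in the model (0.018, adjusted p = 0.984). Myd88, the adaptor used by nearly all Toll-like receptors, averaged 358 ± 42.1 CPM in LL, 427 ± 41.1 CPM in PL and 108 ± 2.57 CPM in PP, at 1.73, adjusted p = 9.72e-13 against PP and with no difference from PL that passed (-0.25, adjusted p = 0.35). Map3k8, the kinase that links TLR4 to ERK, and Tirap had log2 fold changes of 4.12, adjusted p = 7.96e-17 and 1.20, adjusted p = 2.67e-08 against PP. Map3k8 was lower in LL than in PL. That call was lost without LL replicate 1 or 5, without PL replicate 1 or 4, or with no filter on low counts. Tlr2, the receptor for bacterial lipoproteins, had 289, 271, 265, 212 and 583 CPM in LL libraries, 1821, 539, 1526 and 1503 CPM in PL libraries and 188, 208, 171, 205 and 138 CPM in PP libraries. It passed against PP (0.83, adjusted p = 0.0208) but not without LL replicate 5 (0.51, adjusted p = 0.122), without PP replicate 5 (adjusted p = 0.0522), in limma voom (0.76, adjusted p = 0.0677) or with the sorter in the model (1.37, adjusted p = 0.187).

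Fewer interferon-stimulated genes were above saline in LL than in PL, in counts that share the PP libraries. Of 37 tested members, 13 were higher in LL than in PP, none was lower and 24 did not pass, with a median log2 fold change of 0.50. The shares of all genes were 18.9% higher and 13.2% lower. In PL, 29 list members were higher with a median of 1.37, and 19 of the 37 were lower in LL than in PL, beside 2.03% of all genes. Once the sorter was a term 6 were higher in LL than in PP. Slfn2, a Schlafen family member that is strongly induced in activated macrophages, had 395, 375, 339, 328 and 459 CPM in LL libraries, 604, 571, 656 and 616 CPM in PL libraries and 49.2, 35.6, 46.9, 37.5 and 40.1 CPM in PP libraries. It lay between the other groups without overlap and differed from PP by 3.18 (SE 0.15, adjusted p = 2.67e-18). Gbp7, a guanylate-binding protein, Trim30a, an inhibitor of TLR signalling, and Stat2, the interferon signal transducer, also remained above saline, with log2 fold changes of 1.61, adjusted p = 7.15e-12, 1.23, adjusted p = 7.62e-11 and 1.54, adjusted p = 2.4e-09, and none of these 3 differed from PL at the threshold.

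Many antiviral effectors did not pass against saline, though Ifit1 did. Ifit1, which binds viral RNA, was at 9.49, 5.74, 8.19, 15.6 and 13.9 CPM in LL libraries, 84.1, 38.9, 75.8 and 62.3 CPM in PL libraries and 3.47, 4.72, 4.3, 4.56 and 3.53 CPM in PP libraries, above PP in each LL library (1.35, adjusted p = 0.000675) and below PL in each (-2.63, adjusted p = 1e-06), and the difference from PP missed the threshold with the sorter in the model (1.86, adjusted p = 0.0721). Ifit3 averaged 14.4 ± 4.46 CPM in LL, 40.3 ± 3.82 CPM in PL and 17.7 ± 5.22 CPM in PP and did not pass against PP (-0.29, adjusted p = 0.33). Irf7 (-0.32, adjusted p = 0.464), Usp18 (0.053, adjusted p = 0.877), Ifih1 (-0.003, adjusted p = 0.993) and Rsad2 (0.66, adjusted p = 0.185) did not pass against PP either, while each was lower in LL than in PL. These encode a transcription factor, a protease that removes ISG15, an RNA sensor and the antiviral protein viperin. Isg15, a ubiquitin-like modifier, passed narrowly against PP (0.60, adjusted p = 0.0326) and missed the threshold with the sorter in the model, in limma voom, with no filter on low counts and in 6 of the 10 sets with 1 LL or PP library left out.

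Several genes of antigen presentation were lower in LL than in PP. Of 18 tested members of the MHC class I list, 1 was higher and 5 were lower in LL than in PP, beside 18.9% and 13.2% of all genes, with a median of -0.19, and in PL 4 were higher and 2 lower. Nlrc5, the transactivator of class I genes, was the member that was higher (1.80, adjusted p = 2.51e-05), though not with the sorter in the model (adjusted p = 0.162). Tapbp, Psmb9 and Psmb8, for tapasin and 2 immunoproteasome subunits, had log2 fold changes of -0.55, adjusted p = 0.000197, -0.58, adjusted p = 0.00142 and -0.37, adjusted p = 0.00209. Of 14 members of the class II list, 2 were higher and 7 lower in LL than in PP, with a median of -0.44, while PL had 3 higher and none lower, with a median of 0.09. The 2 higher ones were Cd86 and Cd40, co-stimulatory molecules, and 1 was higher without LL replicate 1 or 5 or PP replicate 2 or 5. Cd74, the invariant chain, was at 261, 169, 215, 203 and 438 CPM in LL libraries and 934, 715, 702 and 639 CPM in PL libraries. Among PP libraries it was at 324, 282, 358, 309 and 634 CPM. H2-Ab1, a class II beta chain, was at 121, 59.6, 83.5, 63.5 and 182 CPM in LL libraries and 316, 319, 230.2 and 223 CPM in PL libraries. PP libraries held 155, 137, 177, 145 and 281 CPM. For both genes LL replicate 5 was the highest of its group and PP replicate 5 the highest of its own, the LL and PP ranges overlapped, and all PL libraries exceeded all LL libraries.

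The log2 fold changes in LL against PP were -0.57 (SE 0.22, adjusted p = 0.0485) for Cd74, -0.81 (SE 0.24, adjusted p = 0.0113) for H2-Ab1 and -1.03 (SE 0.31, adjusted p = 0.0126) for H2-Aa, and against PL -1.54 (SE 0.23, adjusted p = 0.000108) for Cd74. Without PP replicate 5 the first comparison gave -0.31 (adjusted p = 0.235) for Cd74, -0.59 (adjusted p = 0.051) for H2-Ab1 and -0.78 (adjusted p = 0.0511) for H2-Aa, and 2 list members rather than 7 were lower. The Cd74 call was also lost without LL replicate 1, 2, 3 or 4 or PP replicate 3, with adjusted p of 0.0607 to 0.149. With no library left out it was lost with relative log expression size factors (adjusted p = 0.0645), in DESeq2 (0.0596), with no filter on low counts (0.0986), with a replicate block (0.0509) and with only the groups compared (0.219), and in the last of these H2-Ab1 was lost too (adjusted p = 0.113). Under the sorter term no class I gene was called in either direction, no class II gene was lower in LL than in PP and 1 was higher, and Cd74 was at 0.021, adjusted p = 0.991. Cd40 was at 1.17, 1.07, 3.79, 2.9 and 10.2 CPM in LL libraries, 43.3, 13.4, 40.8 and 42 CPM in PL libraries and 0.124, 1.35, 0.253, 0.48 and 0.756 CPM in PP libraries, so that the LL and PP libraries overlapped and LL replicate 5 was again the highest (2.68, adjusted p = 0.00282 against PP). The Cd40 call was lost with the sorter in the model (1.14, adjusted p = 0.801) and in limma voom (2.36, adjusted p = 0.111).

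Genes of cytokine receptor signalling and of the glucocorticoid response were raised in LL, with medians near those of PL. Of 20 tested C/EBP, STAT3 and acute-phase genes, 15 were higher and 2 lower in LL than in PP, with a median of 2.16. Among all genes 18.9% were higher and 13.2% lower. PL had 15 list members higher and 1 lower, with a median of 2.59, and 3 were lower in LL than in PL. Without LL replicate 2 or 5 or PP replicate 2 or 5, 1 was lower than in PP. Of 23 glucocorticoid-responsive genes and metallothioneins, 17 were higher and 3 lower, with a median of 2.47, the share lower being close to that of all genes. PL had 18 higher and 3 lower, with a median of 2.97, and 6 were lower in LL than in PL. When the sorter entered the model 6 genes of the STAT3 list were higher and none lower, and 11 of the glucocorticoid list were higher and 1 lower.

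Stat3, the transcription factor of the interleukin 6 family, was at 1081, 1184, 1165, 1103 and 1177 CPM in LL libraries and 1321, 1344, 1236 and 1258 CPM in PL libraries. The level in PP libraries was 267, 289, 265, 278 and 274 CPM. LL lay above PP by 2.06 (SE 0.087, adjusted p = 1.87e-19), and the difference from PL did not pass (-0.17, adjusted p = 0.329). Pim1, a kinase that STAT factors induce, averaged 67.3 ± 18.8 CPM in LL, 111 ± 37.1 CPM in PL and 2.56 ± 0.646 CPM in PP (4.71, adjusted p = 2.35e-17 against PP). Il4ra, a subunit of the interleukin 4 receptor, averaged 506 ± 100.3 CPM in LL, 552 ± 169 CPM in PL and 91.3 ± 7.56 CPM in PP (2.47, adjusted p = 6.41e-14). Cebpb, which encodes a transcription factor of the acute-phase response, averaged 32.5 ± 7.66 CPM in LL, 39.1 ± 15.8 CPM in PL and 2.09 ± 0.589 CPM in PP, with all LL libraries above PP (3.94, adjusted p = 1.53e-13) and no difference from PL that passed (-0.28, adjusted p = 0.612). Lrg1, a secreted acute-phase glycoprotein, had no count in any PP library and 709 counts over the LL libraries, at least 219-fold higher. It was at 16.9 ± 4.14 CPM in LL beside 14.5 ± 2.01 CPM in PL. With the sorter in the model its change could not be estimated (SE 6448), so that fit could not call it. Il6ra and Il6st, for the interleukin 6 receptor and its shared chain, were the members that were lower. Il6st (-0.76, adjusted p = 8.74e-06) was not called with the sorter in the model (-0.38, adjusted p = 0.377).

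Fkbp5, a chaperone that glucocorticoid receptors induce, was at 561, 470.1, 512, 574 and 427 CPM in LL libraries and 569, 564, 558 and 497 CPM in PL libraries. In PP it was at 130, 82.8, 85.5, 78.2 and 148 CPM. The LL and PL ranges overlapped, no PP library came near them, and LL differed from PP by 2.28 (SE 0.13, adjusted p = 1.51e-15). Tsc22d3, which encodes the glucocorticoid-induced protein GILZ, averaged 608 ± 79 CPM in LL, 567 ± 80.7 CPM in PL and 182 ± 58.6 CPM in PP (1.74, adjusted p = 6.66e-08 against PP). Per1, a clock gene with a glucocorticoid response element, averaged 56.5 ± 10.3 CPM in LL, 77.3 ± 23.1 CPM in PL and 9.81 ± 2.6 CPM in PP (2.52, adjusted p = 1.77e-11). Mt1, a metallothionein, and Cdkn1a, the cyclin-dependent kinase inhibitor p21, were higher than in PP (2.47, adjusted p = 9.27e-16 and 2.69, adjusted p = 1.54e-14) but lower than in PL (-0.98, adjusted p = 2.75e-05 and -1.14, adjusted p = 2.75e-05). Sgk1, a kinase that glucocorticoids induce in many cells, moved the other way: it was at 92.6, 179, 141, 140.2 and 83.4 CPM in LL libraries, 168, 198, 88.8 and 124 CPM in PL libraries and 545, 473, 478, 515 and 338 CPM in PP libraries, lower in each LL library than in any PP library (-1.88, SE 0.20, adjusted p = 8.06e-09).

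The genes with the highest fold changes that also met the mean of at least 5 CPM, separated the LL and PP libraries and were called with the sorter in the model were Gm42731, Cd300lf, Socs2, Bcl3, Socs3, Igfbp6, Cish, 5530402G07Rik, Sema6b, Hif3a, Cd244a and Kif2c, of 587 such genes that were higher. Cd300lf (ENSMUSG00000047798, chromosome 11), an inhibitory receptor for phospholipids on myeloid cells, was at 292, 301, 324, 309 and 308 CPM in LL libraries and 363, 445, 290.1 and 289 CPM in PL libraries. Saline microglia (PP) had 2.48, 1.75, 1.14, 1.2 and 4.79 CPM. It was all but silent under saline, it was present at close to the same level in LL and PL, and it differed from PP by 7.07 (SE 0.28, adjusted p = 5.29e-19). Cd244a, a SLAM family receptor, averaged 155 ± 32.6 CPM in LL, 135 ± 17.4 CPM in PL and 3.2 ± 0.603 CPM in PP (5.59, SE 0.21, adjusted p = 1.51e-20 against PP). Gm42731, for which no function is given in the sources used here, had 275 counts over the LL libraries and 1 over the PP libraries, a ratio of 254 with an exact 95% counting interval of 45.3 to 10100. Igfbp6, a binding protein of insulin-like growth factors, averaged 15.2 ± 2.35 CPM in LL, 13.5 ± 4.3 CPM in PL and 0.249 ± 0.234 CPM in PP. Sema6b, a semaphorin, averaged 21 ± 3.25 CPM in LL, 29.9 ± 11.9 CPM in PL and 0.4 ± 0.358 CPM in PP. Hif3a, an inhibitory hypoxia-inducible factor that glucocorticoids induce, averaged 7.02 ± 2.29 CPM in LL, 8.28 ± 2.46 CPM in PL and 0.125 ± 0.176 CPM in PP. Kif2c, a kinesin of mitotic spindles, averaged 59.3 ± 6.09 CPM in LL, 76.2 ± 3.49 CPM in PL and 1.7 ± 0.407 CPM in PP, while of 22 genes of the cell cycle list, which does not hold it, Tk1 and Ccne2 were higher and Mcm3 was lower, smaller shares than the 18.9% and 13.2% of all genes. With the sorter in the model Tk1 (0.80, adjusted p = 0.55), Ccne2 (0.59, adjusted p = 0.576) and Mcm3 (0.20, adjusted p = 0.8) were not called, and Ccne2 also missed in limma voom (adjusted p = 0.0725) and with no filter on low counts (adjusted p = 0.106). Leaving out LL replicate 3, 4 or 5 or PP replicate 1, 2, 3 or 4 left 1 cell cycle gene higher, and leaving out PP replicate 1 or 4 made 2 lower.

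Among genes that lay within 0.3 log2 units of PL, the 6 with the smallest adjusted p in LL against PP were Cd244a, Runx1, B4galt3, Gcnt2, Ppox and Stat3. Runx1, a transcription factor of myeloid cells, was at 843, 780.1, 951, 832 and 888 CPM in LL libraries, 1077, 829, 925 and 974 CPM in PL libraries and 185, 186, 167, 142 and 178 CPM in PP libraries, with overlapping LL and PL values and a log2 difference of 2.32 (SE 0.088, adjusted p = 1.51e-20) against PP. Gcnt2, an enzyme that branches sugar chains, averaged 875 ± 65.8 CPM in LL, 861 ± 203 CPM in PL and 52 ± 14.5 CPM in PP. B4galt3, a galactosyltransferase, averaged 538 ± 35.7 CPM in LL, 654 ± 105 CPM in PL and 75.2 ± 5.6 CPM in PP. Ppox, an enzyme of haem synthesis, averaged 394 ± 38 CPM in LL, 471 ± 38.7 CPM in PL and 68.6 ± 3.88 CPM in PP. B4galt3 and Ppox lie on the same chromosome, and whether they share reads was not examined.

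Some receptors for complement fragments and antibodies were raised. Of 18 tested complement and Fc receptor genes, 7 were higher in LL than in PP and none was lower. The shares of all genes were 18.9% higher and 13.2% lower. With the sorter in the model the count was the same 7 to 0, and PL had 9 higher. C5ar1, the receptor for complement fragment C5a, averaged 1337 ± 137 CPM in LL, 1843 ± 163 CPM in PL and 343 ± 32.7 CPM in PP (1.96, adjusted p = 1.11e-16 against PP). Fcgr4, an activating Fc receptor, averaged 48.2 ± 5.14 CPM in LL, 42.1 ± 4.29 CPM in PL and 13.2 ± 2.65 CPM in PP (1.87, adjusted p = 5.7e-10). Fcgr2b, the inhibitory one, averaged 1064 ± 52.8 CPM in LL, 944 ± 96.2 CPM in PL and 583 ± 39.3 CPM in PP (0.87, adjusted p = 1.2e-08); both averages were higher in LL than in PL, by differences that did not pass (0.20, adjusted p = 0.66 and 0.17, adjusted p = 0.431). Hcar2, the receptor for ketone bodies and niacin, averaged 473 ± 103 CPM in LL, 586 ± 129 CPM in PL and 14.3 ± 2.14 CPM in PP, at 5.05 (SE 0.25, adjusted p = 1.08e-15) against PP.

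Most growth and early response genes were raised as well. Of 24 genes of MYC, ribosome biogenesis and amino acid stress, 16 were higher and 2 lower in LL than in PP, with a median of 0.77. Among all genes 18.9% were higher and 13.2% lower. PL had 15 list members higher and 2 lower, with a median of 0.75. With the sorter in the model 8 were higher and none lower in LL than in PP. Myc itself was at 423, 433, 406, 352 and 401 CPM in LL libraries, 362, 547, 289.5 and 320.5 CPM in PL libraries and 132, 112, 96, 85.4 and 51.2 CPM in PP libraries, with all LL libraries above PP (2.08, adjusted p = 5.07e-08) and no difference from PL that passed (0.086, adjusted p = 0.903). Nop58 and Gnl3, which encode nucleolar proteins, and Atf4, the amino acid stress factor, had log2 fold changes of 1.85, adjusted p = 3.29e-13, 1.76, adjusted p = 8.58e-13 and 1.21, adjusted p = 3.14e-09 against PP. Of 22 immediate early and heat shock genes, 15 were higher and 1 lower, with a median of 1.18, and PL had 17 higher, with a median of 2.17; with the sorter in the model 11 were higher. Fosl2, a partner of JUN proteins, averaged 153 ± 24.5 CPM in LL, 233 ± 25.9 CPM in PL and 6.6 ± 3.62 CPM in PP (4.53, adjusted p = 3.38e-18 against PP). Klf4, a transcription factor of monocytes, averaged 41.7 ± 8.62 CPM in LL, 47.9 ± 6.51 CPM in PL and 2.17 ± 2.23 CPM in PP (4.24, adjusted p = 1.17e-09). Fos was at 53.4, 40.2, 32.9, 45.7 and 32.1 CPM in LL libraries and 42.1, 1.48, 1.52, 3.36 and 3.4 CPM in PP libraries. PP replicate 1 lay within the LL range, and Fos did not pass (1.97, adjusted p = 0.146). It passed without that library (4.04, adjusted p = 0.0125) and, with all libraries kept, in limma voom (3.24, adjusted p = 0.00655) and with a replicate block (2.99, adjusted p = 0.0143).

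Metabolic genes gave smaller counts. Of 21 tested genes of glycolysis and HIF1A targets, 5 were higher and 7 lower in LL than in PP, beside 18.9% and 13.2% of all genes, and without LL replicate 5 there were 4 lower; with the sorter in the model none was lower. Slc2a1, the glucose transporter GLUT1, averaged 245 ± 30.2 CPM in LL, 330.2 ± 46.2 CPM in PL and 64.6 ± 7.65 CPM in PP (1.92, adjusted p = 1.14e-12). Ldha, lactate dehydrogenase A, averaged 332 ± 33 CPM in LL, 385 ± 32 CPM in PL and 147 ± 15.9 CPM in PP (1.18, adjusted p = 1.58e-10). Pfkfb3, which drives glycolysis through an activator of phosphofructokinase, averaged 346 ± 74.4 CPM in LL, 648 ± 88.3 CPM in PL and 132 ± 25.2 CPM in PP (1.39, adjusted p = 4.51e-09). Of 30 nuclear-encoded genes of oxidative phosphorylation, 2 were higher and 2 lower, below the share of all genes in both directions. With 1 library left out, 0 to 2 were higher and 0 to 5 lower. Of the lower ones Sdhd, a subunit of succinate dehydrogenase, had a log2 fold change of -0.31, adjusted p = 0.0224, and it did not pass without LL replicate 4 or 5, without PP replicate 4 or with the sorter in the model. Of 23 cholesterol genes 4 were higher and 7 lower, or 4 lower without PP replicate 1 or 3, beside 18.9% and 13.2% of all genes; the share higher was close to that of all genes, as was the share lower without either library. Abcg1 and Abca1, which export cholesterol, were lower (-1.07, adjusted p = 2.41e-09 and -0.87, adjusted p = 3.68e-08), the last of these not with the sorter in the model (-0.48, adjusted p = 0.123). Abca1 was also lower in LL than in PL. Of 23 iron, itaconate and oxidant genes 11 were higher, or 7 without PP replicate 5, and 2 lower. Slc39a14, an importer of iron and zinc, averaged 91.9 ± 9.42 CPM in LL, 83.9 ± 12.4 CPM in PL and 9.47 ± 4.27 CPM in PP (3.28, adjusted p = 4.97e-14). Txnrd1, a thioredoxin reductase, averaged 91.3 ± 7.58 CPM in LL, 138 ± 24 CPM in PL and 15.5 ± 2.28 CPM in PP (2.56, adjusted p = 1.46e-16). Acod1, which makes itaconate, had 74 counts over the LL libraries and 3 over the PP libraries, a ratio of 22.8 with an exact counting interval of 7.51 to 113. Its mean was 1.64 ± 1.23 CPM in LL beside 8.23 ± 3.23 CPM in PL. With the sorter in the model its change against PP could not be estimated (SE 10331), so that fit could not call it.

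Many genes of the homeostatic microglial state were lower after repeated LPS than under saline, as many were after a single dose. Of 40 tested members, 20 were lower, 5 higher and 15 did not pass in LL against PP, with a median log2 fold change of -0.28. The shares of all genes were 13.2% lower and 18.9% higher. In PL 18 were lower and 6 higher, with a median of -0.21. In LL against PL 1 was higher and 4 were lower. With the sorter in the model 8 were lower and 2 higher in LL than in PP. In bulk libraries a lower level of a microglial transcript cannot be told apart from a smaller share of microglial RNA in the library.

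**Figure D3:**
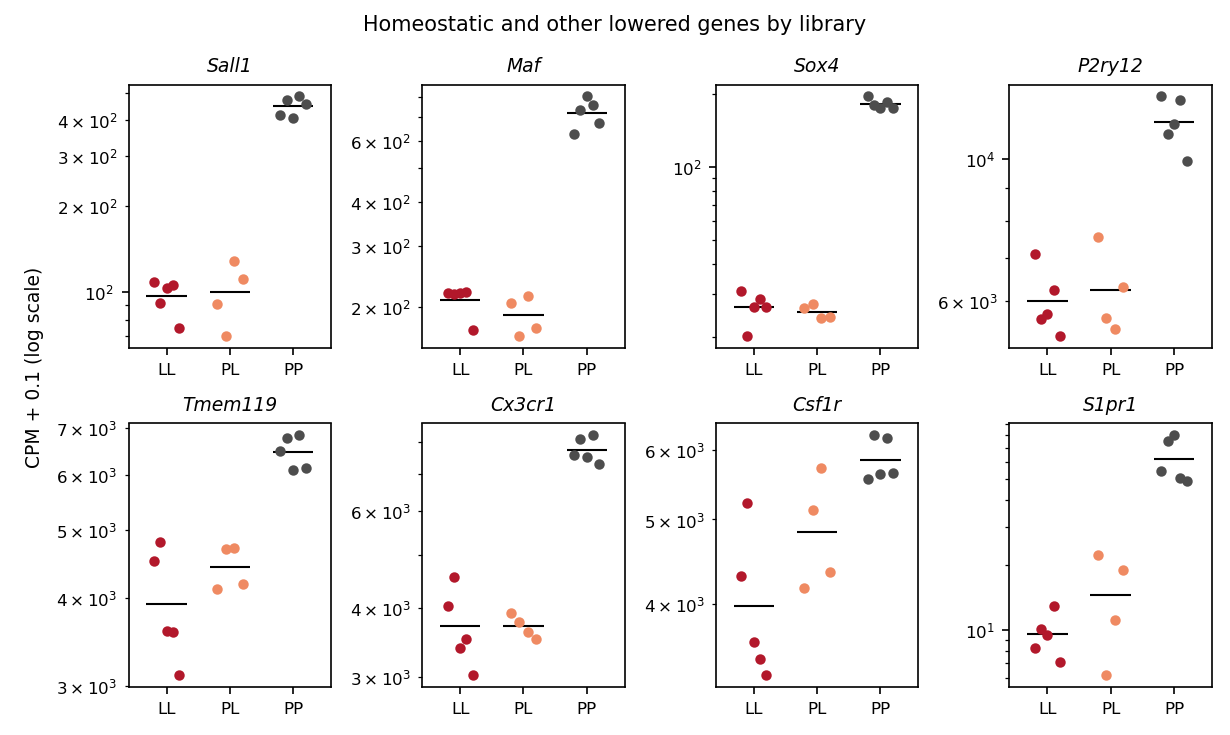
Level of 8 genes in each library, as CPM plus 0.1 on a log axis, in LL (5 libraries), PL (4) and PP (5); black lines are group means. For each of the 8 genes the LL libraries all lie below the PP libraries.

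Sall1 (ENSMUSG00000031665, chromosome 8), a transcription factor that defines microglial identity, was at 109, 91.7, 103, 106 and 75 CPM in LL libraries and 90.8, 69.9, 128 and 111 CPM in PL libraries. Values in PP libraries were 418, 471, 408, 485 and 458 CPM. The LL and PL libraries overlapped and stayed below all PP libraries, at -2.21 (SE 0.17, adjusted p = 9.06e-13) in LL against PP, and the call held with the sorter in the model (-1.98, adjusted p = 2.82e-05). P2ry12 (ENSMUSG00000036353, chromosome 3), the receptor by which microglial processes follow ADP, was at 7086, 5611, 5712, 6230 and 5271 CPM in LL libraries and 7548, 5638, 5411 and 6291 CPM in PL libraries. Among PP libraries it was at 12530, 10960, 11360, 12380 and 9920 CPM. Cx3cr1 (ENSMUSG00000052336, chromosome 9), the receptor for the neuronal chemokine fractalkine, was at 4041, 4559, 3391, 3520 and 3023 CPM in LL libraries and 3925, 3784, 3629 and 3516 CPM in PL libraries. PP libraries held 7586, 8086, 7513, 8215 and 7283 CPM. Both were lower in each LL library than in any PP library, at -0.93 (SE 0.11, adjusted p = 2.57e-08) for P2ry12 and -1.06 (SE 0.11, adjusted p = 1.17e-09) for Cx3cr1. In the fit with the sorter term Cx3cr1 still passed (-0.64, adjusted p = 0.0365) and P2ry12 did not (-0.39, adjusted p = 0.227).

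Tmem119 (ENSMUSG00000054675, chromosome 5), a surface marker of microglia, was at 4515, 4804, 3588, 3583 and 3105 CPM in LL libraries and 4125, 4702, 4725 and 4193 CPM in PL libraries. The level in PP libraries was 6481, 6775, 6093, 6825 and 6127 CPM. Csf1r (ENSMUSG00000024621, chromosome 18), the receptor that microglia need for survival, was at 4311, 5222, 3619, 3460 and 3315 CPM in LL libraries and 4169, 5125, 5728 and 4354 CPM in PL libraries. In PP it was at 5564, 6239, 5633, 6192 and 5651 CPM. LL lay below PP without overlap for both genes, at -0.72 (SE 0.11, adjusted p = 3.67e-06) and -0.56 (SE 0.13, adjusted p = 0.00094), while with the sorter in the model neither passed (-0.33, adjusted p = 0.376 and -0.17, adjusted p = 0.76). In PL against PP, Csf1r did not pass, at -0.27 (SE 0.13, adjusted p = 0.134). Mef2c and Irf8, transcription factors of the microglial programme, had log2 fold changes of -0.72, adjusted p = 5.18e-08 and -0.84, adjusted p = 2.36e-07 in LL against PP and were also called with the sorter in the model. Hhex, a homeobox factor, averaged 21.2 ± 3.65 CPM in LL, 12.9 ± 2.25 CPM in PL and 100.1 ± 8.16 CPM in PP (-2.23, SE 0.21, adjusted p = 2.9e-10 against PP). P2ry6, the receptor that triggers microglial phagocytosis, was one of the members that were higher, 1058 ± 50.2 CPM in LL beside 560.5 ± 41 CPM in PP (0.92, SE 0.077, adjusted p = 1.7e-11).

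Other lowered genes included further transcription factors and receptors. The 12 with the lowest fold changes under the same conditions, of 250 such genes, were 5930403N24Rik, BC147527, 2010008C14Rik, Sox4, Nsl1, S1pr1, Adamts16, Gm42508, Gm45540, Sh2d3c, Otud1 and Lpar5. Sox4 (ENSMUSG00000076431, chromosome 13), a transcription factor of progenitor and immune cells, was at 30.8, 20.1, 26.5, 28.5 and 26.5 CPM in LL libraries and 26.3, 27.3, 23.9 and 24.2 CPM in PL libraries. Saline microglia (PP) had 195, 179.8, 176, 185 and 175 CPM. Its LL and PL values overlapped and lay far below PP, at -2.79 (SE 0.15, adjusted p = 6.82e-17) in LL against PP. S1pr1, the sphingosine 1-phosphate receptor that governs lymphocyte exit from lymph nodes, averaged 9.5 ± 2.21 CPM in LL, 14.5 ± 7.31 CPM in PL and 61.8 ± 14.6 CPM in PP (-2.70, SE 0.25, adjusted p = 2.01e-10). Lpar5, a receptor for lysophosphatidic acid, averaged 4.99 ± 3.16 CPM in LL, 3.23 ± 1.17 CPM in PL and 26 ± 1.07 CPM in PP. Otud1, a deubiquitinase, averaged 3.74 ± 1.1 CPM in LL, 1.96 ± 1.02 CPM in PL and 19.5 ± 4.21 CPM in PP. Sh2d3c, an adaptor protein, averaged 5.2 ± 2.76 CPM in LL, 3.64 ± 2.53 CPM in PL and 29.8 ± 3.89 CPM in PP. Maf, the transcription factor c-MAF, was at 220.5, 218, 219, 222 and 173 CPM in LL libraries, 206, 165, 215 and 174 CPM in PL libraries and 629, 736, 803, 759 and 674 CPM in PP libraries, with no overlap between LL and PP (-1.77, SE 0.11, adjusted p = 6.08e-15). Gpr183, the receptor for oxysterols, and Ccng2, a cyclin of quiescent cells, had log2 fold changes of -1.68, adjusted p = 6.41e-14 and -2.33, adjusted p = 4.35e-13. Of 26 G protein-coupled and chemokine receptor genes and their regulators, 10 were higher and 10 lower in LL than in PP, with 7 and 6 with the sorter in the model. Among all genes 18.9% were higher and 13.2% lower without that term. Among the lower ones Rgs2, a brake on Gq signalling, averaged 170.3 ± 53 CPM in LL, 91 ± 18.5 CPM in PL and 843 ± 51.1 CPM in PP (-2.31, SE 0.19, adjusted p = 3.86e-11 against PP), and was less reduced in LL than in PL (0.90, adjusted p = 0.00734).

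Disease-associated microglia genes showed no common direction. Of 29 tested members 7 were higher and 7 lower in LL than in PP, beside 18.9% and 13.2% of all genes, and without LL replicate 2 there were 4 lower; PL had 9 higher and 3 lower. Spp1, for osteopontin, averaged 179 ± 31.3 CPM in LL, 191 ± 83.3 CPM in PL and 13.6 ± 3.28 CPM in PP (3.72, adjusted p = 2.52e-07 against PP). Ch25h, the enzyme that makes 25-hydroxycholesterol, was at 4.53, 5.21, 7.73, 7.19 and 22.2 CPM in LL libraries, 59.7, 25.3, 56.5 and 44.6 CPM in PL libraries and 1.11, 0.405, 1.26, 0.12 and 1.39 CPM in PP libraries, again with LL replicate 5 the highest. Clec7a, the beta-glucan receptor dectin-1, averaged 14.5 ± 2.68 CPM in LL, 16.3 ± 6.92 CPM in PL and 33 ± 6.44 CPM in PP, lower than in PP (-1.18, adjusted p = 0.000125) but not with the sorter in the model (-0.40, adjusted p = 0.659). Apoe did not pass (0.05, adjusted p = 0.795).

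Without the sorter term, a few genes had moved further from saline in LL than in PL. By the rule that they be called in the same direction against PP, against PP with the sorter in the model and against PL, the higher ones were Ripor2 and Gm42735 and the 5 lower ones with the largest difference from PL were Ptafr, Orai2, Neurl3, Gsap and Lrrc25. Ptafr (ENSMUSG00000056529, chromosome 4), the receptor for platelet-activating factor, was at 113, 86.9, 122, 115 and 159 CPM in LL libraries and 375, 129, 314 and 349 CPM in PL libraries. Values in PP libraries were 343, 344, 361, 322 and 330.4 CPM. PL replicate 2 lay within the LL range, the other PL libraries lay with PP, and LL differed from PP by -1.51 (SE 0.19, adjusted p = 1.52e-07) and from PL by -1.29 (SE 0.19, adjusted p = 6e-05). Neurl3, a ubiquitin ligase, averaged 56.5 ± 3.58 CPM in LL, 102 ± 15.9 CPM in PL and 131 ± 15.9 CPM in PP (-0.86, adjusted p = 5.23e-05 against PL). Orai2, a calcium channel subunit, averaged 10.6 ± 2.75 CPM in LL, 21.5 ± 7.5 CPM in PL and 26.6 ± 2.43 CPM in PP (-1.04, adjusted p = 0.00143). Ripor2, an inhibitor of RhoA, was at 89.9, 69.3, 78.1, 66 and 84.7 CPM in LL libraries, 40.0, 73.4, 35.9 and 36.8 CPM in PL libraries and 8.3, 6.88, 5.82, 12.2 and 7.81 CPM in PP libraries, with PL replicate 2 inside the LL range (0.75, SE 0.21, adjusted p = 0.0417 against PL), and its call against PL was lost without any one of LL replicates 1, 2, 3 and 5 or PL replicates 1, 3 and 4. Lrrc25 was not called against PL without PL replicate 3 (-0.35, adjusted p = 0.119). None of the 7 genes was called against PL with the sorter in the model.

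Transcripts of other cell types moved with the comparison, and their part in the results above was not tested. All 10 tested neuron markers were higher in LL than in PP, with a median log2 fold change of 2.44; in PL 1 was higher, with a median of 0.74, and with the sorter in the model none was, with a median of -0.38. The summed neuron markers were 251 to 1100 CPM in LL, 117 to 374 CPM in PL, 42.5 to 197 CPM in PP and 680 CPM at most in PBP, that highest one in the library sorted on the XDP. Meg3, a neuronal long non-coding RNA and the most abundant of these, was at 204, 466, 494, 328 and 898 CPM in LL libraries, 172, 173, 329 and 87.5 CPM in PL libraries and 31.2, 71.6, 80.3, 61 and 166 CPM in PP libraries, highest in LL replicate 5. Snap25, a synaptic protein, was at 13.9, 22.9, 35.2, 25.3 and 59.1 CPM in LL libraries, 10.7, 7.13, 10.9 and 11.1 CPM in PL libraries and 2.11, 5.39, 5.82, 5.64 and 8.7 CPM in PP libraries. Among all genes 18.9% were higher and 13.2% lower in LL than in PP. Of the other marker lists, 6 of 10 astrocyte, 5 of 9 oligodendrocyte and 4 of 5 red blood cell genes were higher in LL than in PP. Of the oligodendrocyte genes 1 of 9 was lower, a share near that of all genes. Once the sorter was a term 1, 0 and 0 were higher. The summed red blood cell markers were 29.5 to 98.5 CPM in LL, 6.48 to 19.8 CPM in PL and 1.44 to 7.43 CPM in PP.

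Monocyte and neutrophil markers were low in both groups, while the lymphocyte markers, mostly Ighm by level, summed to 291 to 401 CPM in LL and 766 to 946 CPM in PP. The monocyte markers summed to 4.27 to 14.9 CPM in LL and 7.18 to 22.1 CPM in PP, with 1 of 4 tested members, Plac8, higher (2 without PP replicate 4). The markers of border-associated macrophages summed to 56.6 to 95.5 CPM in LL and 54.1 to 118 CPM in PP, with 1 of 8, Cbr2, lower (2 without LL replicate 4). Neutrophil markers summed to 0.584 to 35.1 CPM in LL, where LL replicate 4 was the highest, and 0 to 7.85 CPM in PP. Lcn2 and Ltf were the 2 of 7 neutrophil markers called higher, and Ltf had counts in LL replicate 4 alone among the LL libraries; without that library 1 was higher. Of 6 endothelial and pericyte markers 1, Pecam1, was lower. Among all genes 18.9% were higher and 13.2% lower, and the shares lower of the endothelial and border-associated macrophage markers were near the latter. Both tested lymphocyte genes, Ighm and Cd79b, were lower in LL than in PP (-1.45, adjusted p = 3.03e-11 and -0.72, adjusted p = 0.00116). Of the lymphocyte genes below the filter, Cd3e, Cd79a and Trbc2 had 6, 10 and 1 counts over the 5 LL libraries and 0, 2 and 0 over the PP libraries, Cd3d and Nkg7 had none in LL and 6 and 5 in PP, and Ms4a1 had none in either. With the sorter in the model Ighm was still called, while Cd79b (-0.62, adjusted p = 0.312), Plac8, Cbr2 and Pecam1 were not. That fit could not estimate Lcn2 (SE 8425) or Ltf (SE 5901) and so could not call them. Ltf missed in DESeq2, in limma voom and with no filter on low counts. The immunoglobulin heavy chain transcript was at 330.1, 266, 228, 321 and 243 CPM in LL libraries and 795, 736, 748, 837 and 683 CPM in PP libraries.

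**Figure D4:**
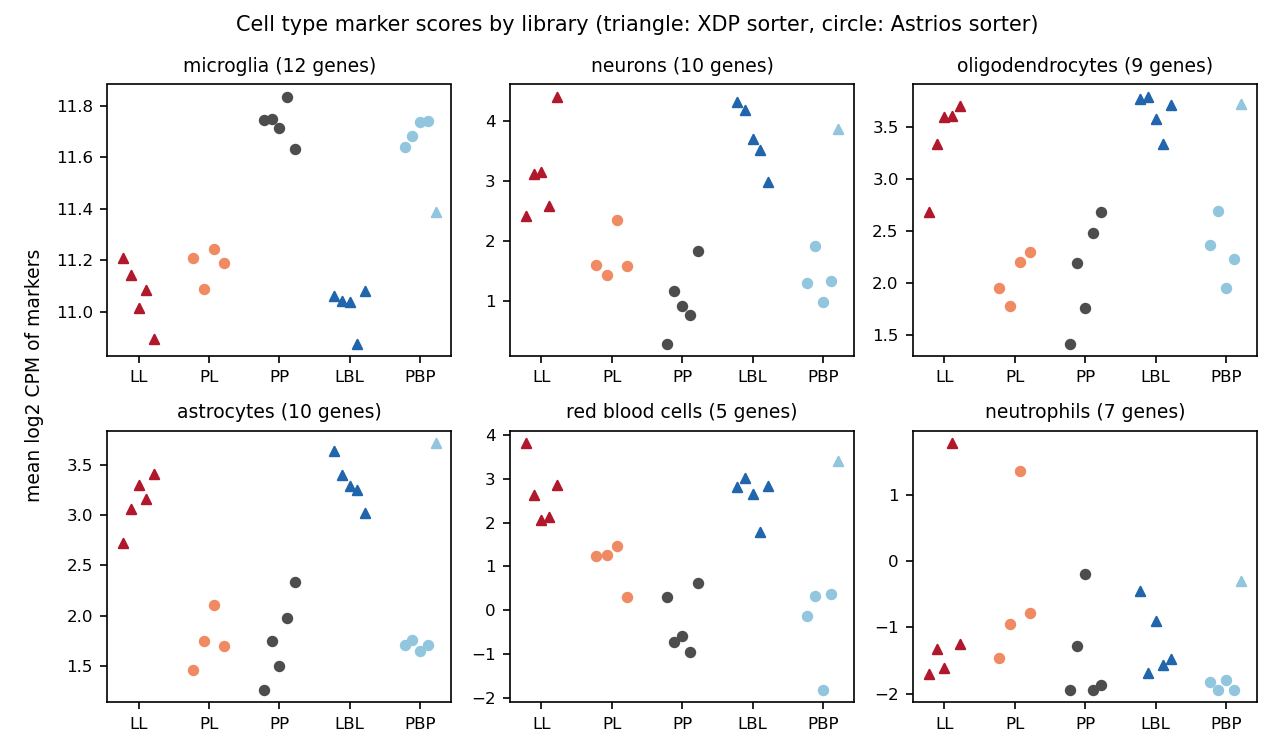
Mean log2 CPM of the markers of 6 cell types in each library of LL, PL, PP, LBL and PBP, with triangles for libraries sorted on the XDP and circles for those sorted on the Astrios. The neuron score of the 5 LL libraries (2.42 to 4.40) lies above that of the 5 PP libraries (0.286 to 1.83), and the single PBP triangle (3.88) lies at the LL level.

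LL replicate 5, sorted on another day than the other LL libraries, held the highest LL value of Il1b, Tnf, Cxcl10, Ccl2, Ccl12 and Tnfaip3, and also the highest neuron markers. Without it 2574 genes were higher and 1786 lower in LL than in PP. Il1b, Tnf, Cxcl10, Ccl2 and Ccl12 were called higher without it as well. PL replicate 2 held the lowest PL value of Il1b, Tnf, Cxcl10, Ccl2, Nfkbia, Tnfaip3, Socs3, Cd14, Dusp1 and Tlr2, though not of Bcl3, Stat3 or Myc. The reason was not tested.

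**Figure D5:**
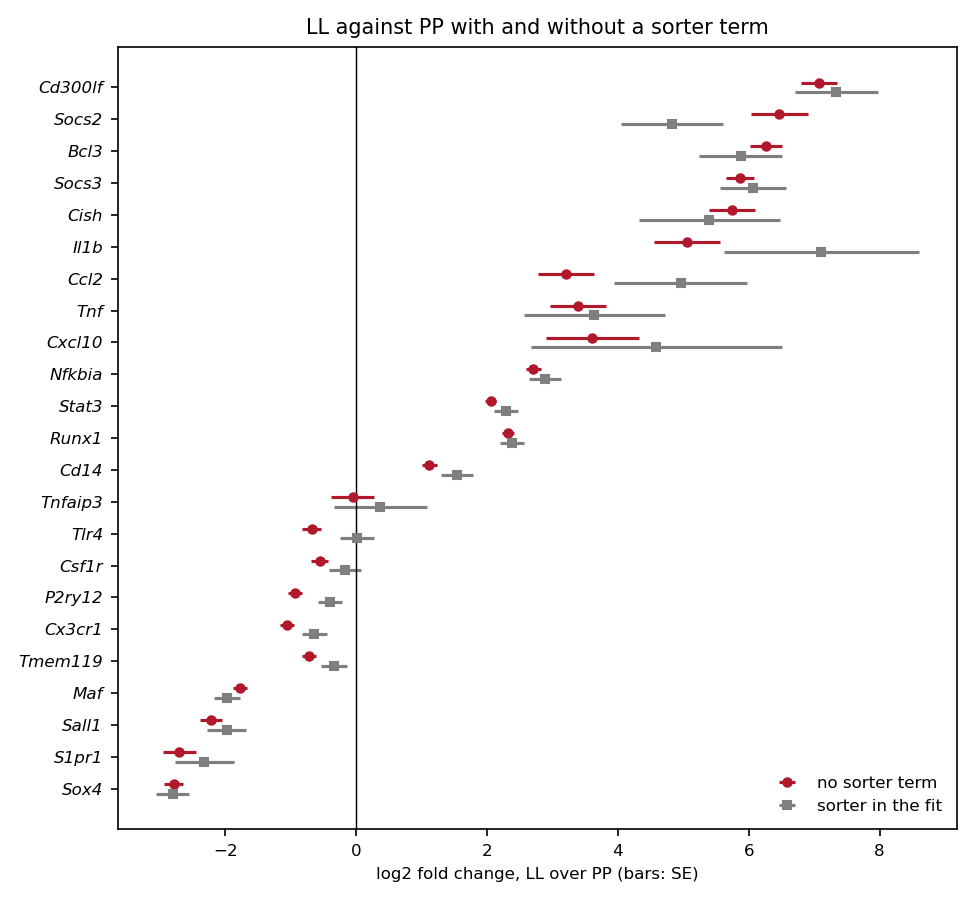
Log2 fold change of LL over PP for 23 genes, with bars of 1 SE, without (red circles) and with (grey squares) the sorter in the model. Socs3 stays near 6 and Sox4 near -2.8 in both, while Tlr4 is at -0.68 without the term and at 0.018 with it.

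Whether microglia that had grown back after depletion answered repeated LPS differently was tested as the difference of differences, (LL minus PP) minus (LBL minus PBP), 4 groups that share no library. LL and LBL were sorted on the XDP and PP on the Astrios. PBP was sorted on the Astrios except for replicate 5, so the sorter cancels only in part. No gene passed in either direction at an adjusted p under 0.05 in edgeR, the smallest adjusted p being 0.775, against 692 genes at an unadjusted p under 0.05. DESeq2, with 776 genes at an unadjusted p under 0.05, and limma voom, with 635, called no gene either. Nor was any gene called in edgeR without PBP replicate 5. For the anchors of the response the fitted changes stood side by side: Il1b was at 5.05 in LL against PP and at 4.08 in LBL against PBP, Socs3 at 5.86 and 6.09, Tnfaip3 at -0.053 and -0.17, and Sall1 at -2.21 and -2.22. A miss of the threshold does not show that the 2 responses were alike.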

How the data were processed

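RNA from sorted microglia was sequenced in 29 libraries of 6 groups, and LL was compared with PP. The deposited table held raw counts per gene, made by the authors; the submitters' processing notes name cutadapt 2.10, TopHat, HTSeq 0.11.0 and build GRCm39. The TopHat version, annotation release and strand setting were not given in the sources used here, so reads of overlapping antisense genes cannot be told apart. The deposited metadata gave the RNA quality number, a score recorded by the authors, and the other unit there, RNA concentration, was not used. No coordinates of GRCm39 are printed; promoters come from RefSeq's GRCm38.p6 table.

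Counts were tested with edgeR 4.0.16 (TMM scaling, filterByExpr, robust quasi-likelihood fit, 1 coefficient per group, 16632 of 36982 genes, 23 residual degrees of freedom, R 4.3.3) with Benjamini-Hochberg adjustment and a threshold of 0.05. A standard error is the log2 fold change divided by the root of F. CPM are TMM-scaled. The fit was tested on simulated data. Alternatives were other size factors, no filter on low counts, DESeq2 1.42.0, limma voom 3.58.1, only the groups compared, the sorter as a term, a replicate block and leaving out each library. Members and gene lists were chosen with earlier results of these data known. Genes named were anchors, the 12 highest and 12 lowest (mean of at least 5 CPM, no overlap, also called with the sorter term), up to 4 per list, and those near or beyond PL; other named genes were chosen after their values were seen. No replicate libraries agreed within sampling noise (chi-square per degree of freedom 5.47 to 20.54). Some genes are not reported here.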

Additional observations from a re-analysis of the deposited data

Results flagged for a closer look

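Of 189 groups of 4 or 5 values examined, 14 held a library set apart from the rest of its group by Dixon's criterion, and chance sets apart about 1 in 20. In LL, replicate 5 had 54 CPM of Cxcl10 (others 7.88 to 14) and 173 CPM of Maf (others 218 to 222). LL replicate 1 had 4.23 CPM of Gm42731 (others 6.68 to 7.06). LL replicate 4 had a border-associated macrophage score of 2.96 (others 2.17 to 2.32) and a neutrophil score of 1.79 (others -1.71 to -1.25).

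In PL, replicate 2 had 39.9 CPM of Socs2 (others 84 to 85.5), 73.4 CPM of Ripor2 (others 35.9 to 40) and 78.4 CPM of Neurl3 (others 108 to 111). PL replicate 4 had 7.01 CPM of Igfbp6 (others 15.5 to 15.8), and PL replicate 3 had a monocyte score of 1.59 (others 0.429 to 0.606).

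In PP, replicate 1 had 31.7 CPM of Ccl2 (others 6.55 to 13.8) and a border-associated macrophage score of 2.08 (others 3.02 to 3.38). PP replicate 5 had 0.126 CPM of Gm42731 (others 0), and PP replicate 4 had an endothelial score of 1.71 (others 0.715 to 0.839).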

How the results depend on the processing

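With the sorter in the fit, 796 genes were higher and 385 lower in LL than in PP, 619 of them at least 2-fold higher and 294 at least 2-fold lower; the cause was not tested. With only the groups compared, 1251 genes were at least 2-fold higher, against 1935. Leaving out 1 LL or PP library gave 2574 to 3125 higher, 1786 to 2132 lower, 1491 to 1995 at least 2-fold higher and 524 to 603 at least 2-fold lower, and leaving out PBP replicate 5 gave 3480, 2181, 2091 and 570. The difference of differences called no gene in any alternative. Deviations from the group means correlated at 0.13, 0.02, 0.01, 0.004 and 0.29 between LL and PP libraries of the same replicate number. Libraries of different replicate numbers had correlations of -0.258 to 0.0923, and whether the numbers pair the libraries was not tested. The replicate block gave 3177 higher, 2319 lower, 1906 at least 2-fold higher and 597 at least 2-fold lower.

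Of the named genes, 131 kept their side of the threshold with the sorter in the fit. Those of them called in both fits kept their direction, and for those called in neither the sign was not compared. A further 56 lost their call with the same sign, and 16 lost their call and changed sign. In LL against PP these 16 went to Aldoc -0.90, Camk2a -0.84, Cd74 0.021, Cd80 0.17, H2-DMa 0.11, Hba-a1 -0.29, Hba-a2 -0.37, Hbb-bs -0.49, Mcm3 0.20, Meg3 -0.12, Mobp -0.51, Pecam1 0.40, Psmb8 0.021, Sdhd 0.23, Slc1a2 -0.60 and Tlr4 0.018. None of them was called in the new direction. In LL against PL, Aldoc (-0.63), Camk2a (-0.51), Ch25h (4.58), Ptgs2 (1.46) and Snap25 (-0.26) changed sign and lost their call. The standard errors of Ch25h and Ptgs2 there were 4.68 and 3.49. Low counts limit Acod1, Lcn2, Hp, Ltf and Gm42731, and the single PBP library on the XDP limits the sorter term. With that term the standard errors of Acod1, Lcn2, Hp, Ltf and Lrg1 in LL against PP were 5901 to 22571, so the fit could not call them.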
